A study of Mus musculus with 33 samples.

Results

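The 4 adult globin genes of the mouse and 5 genes of the red cell program were followed through every library of a study of nicotinamide riboside (NR) in old mice. They were Hbb-bs and Hbb-bt, which encode adult beta globin, Hba-a1 and Hba-a2, which encode adult alpha globin, Alas2, Car1, Car2, Klf1 and Epor. These 9 genes were taken by symbol from the 55376 symbols in each count table. They were chosen by measured values, because Hbb-bs and Hba-a2 were higher in HSCs after NR withdrawal in cohort 1, so their levels in the HSC comparisons of cohort 1 are given as a description, with no test. Tests were made in cohort 2, whose values were not the ground of that choice. Earlier results of these data were known, however, when the genes and tests were set.

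Adult haemoglobin is a tetramer of alpha and beta chains, each holding a haem group, and a maturing red cell precursor devotes most of its messenger RNA to it. Both chains are made in step, from clusters on different chromosomes, with help from GATA1 and from KLF1, which binds CACCC boxes. Haematopoietic stem cells (HSCs) and the progenitors of lymphoid cells (CLPs) and of granulocytes and monocytes (GMPs) lie outside or upstream of the red cell lineage, so globin RNA is not a product for which these cells are known.

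Total RNA was sequenced from sorted bone marrow cells of old male C57BL/6 mice aged 24 to 29 months. O-WT mice were untreated, O-NR mice had received NR in the drinking water for 4 to 6 weeks, and O-NR-RC mice had received NR and then had a recovery of 2 months without it. Cohort 1 held only HSCs, from 2 O-WT mice, from 4 O-NR mice and from 3 O-NR-RC mice. Cohort 2 held HSCs, CLPs and GMPs, each from 4 untreated and 4 treated mice, which made 33 libraries in all. HSCs were sorted from c-Kit-enriched marrow as lineage-negative cKit+Sca1+CD34-Flk2-CD150+ cells, and Ter119, a surface marker of red cells and their late precursors, was among the lineage markers removed. The GMP libraries bear that name in their titles, while their source name reads common myeloid progenitor. Each library was taken as 1 animal, which the sources used here do not state, so the p-values measure the spread between libraries. In such sorted samples, a change in RNA per cell and a change in the number of cells of another type cannot be told apart.

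The libraries held 8897256 to 23816042 counted reads in cohort 1 and 4792380 to 18213674 in cohort 2. Levels are given as CPM, the usual scaling of counts to library size, with TMM factors within each cohort, and are not compared across cohorts. The summed level of 6 HSC markers was 951 to 1836 CPM in the HSC libraries of cohort 2 and 35.1 to 77.9 CPM in the CLP and GMP libraries. In cohort 1 it was 595 to 686 CPM in O-NR 1, O-NR 2, O-NR-RC 2 and O-NR-RC 3, and 1107 to 1733 CPM in the other 5 libraries. Those 4 libraries also held the most RNA of olfactory and vomeronasal receptor genes, which blood cells are not known to express and which serve here as a gauge of background, with 11096 to 11686 summed CPM against 6622 to 9374 CPM in the other 5.

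The 2 copies of each chain are almost the same sequence, which limits what the counts of a single copy can show. Hbb-bs (ENSMUSG00000052305.6, chr7:103826534-103828096, minus strand) and Hbb-bt (ENSMUSG00000073940.3, chr7:103812524-103813996, minus strand) differed at 1 of 444 coding bases, an identity of 99.8%. Hba-a1 (ENSMUSG00000069919.7, chr11:32283511-32284465, plus strand) and Hba-a2 (ENSMUSG00000069917.7, chr11:32296489-32297298, plus strand) differed at 1 of 429. Positions are those of Gencode M21 on GRCm38. The substitutions were C417T in beta globin and C381T in alpha globin, counted from the first base of the start codon, and each fell on the 3rd base of its codon. The stretches below are shown because these single bases are all that separates the coding parts of each pair. The differing base is in capitals, and the sequences come from Gencode M21 transcripts.
Hbb-bs, coding bases 392 to 442: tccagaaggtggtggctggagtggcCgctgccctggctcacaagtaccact
Hbb-bt, coding bases 392 to 442: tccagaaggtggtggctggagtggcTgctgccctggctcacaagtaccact
Hba-a1, coding bases 356 to 406: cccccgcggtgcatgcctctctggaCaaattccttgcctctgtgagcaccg
Hba-a2, coding bases 356 to 406: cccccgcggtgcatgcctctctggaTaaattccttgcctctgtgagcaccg

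Of all stretches of 105 bases, the read length, that can be cut from the Hba-a2 transcript, 73.1% also occur in Hba-a1, and 55.3% of those of Hba-a1 occur in Hba-a2. The shares were 62.2% for Hbb-bs in Hbb-bt and 54.4% for Hbb-bt in Hbb-bs. How the counting treated reads that fit both copies is not given in the sources used here, so the level of a single copy is uncertain and the sum of a pair is the firmer value. Alas2 (chrX:150547375-150570638, plus strand) shares exon sequence with Apex2 on the opposite strand, and whether strand was used in the counting is not given either.

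The 4 globin promoters hold the same 4 short motifs. In the printed stretches CACCC lies before CCAAT in Hbb-bs and Hbb-bt and after it in Hba-a2. Outside the printed stretch, Hba-a2 holds another CACCC, which begins at -170, before its CCAAT at -91. Hba-a1 likewise holds CACCC at -167 and CCAAT at -88, so the order does not differ over the whole window searched. The promoters are shown because the alpha and the beta genes were high in the same libraries. Motifs were searched on both strands in the 250 bases before each RefSeq start, with CACCC (the core of the KLF1 box), GATAA (the core of the GATA1 site), CCAAT and TATAA. Matches are in capitals in the last 130 of these bases, printed 5′ to 3′ on the strand of the gene from RefSeq tables on GRCm38.p6. Hba-a1 is not printed because its window was the same as that of Hba-a2 over 297 of 297 bases at an offset of 3 bases.
Hbb-bs, chr7:103827929-103828058, minus strand: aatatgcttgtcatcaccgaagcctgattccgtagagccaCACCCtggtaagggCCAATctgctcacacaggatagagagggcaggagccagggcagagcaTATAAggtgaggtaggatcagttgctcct
Hbb-bt, chr7:103813924-103814053, minus strand: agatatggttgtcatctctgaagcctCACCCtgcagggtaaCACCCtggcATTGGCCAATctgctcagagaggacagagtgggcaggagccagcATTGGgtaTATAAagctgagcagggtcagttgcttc
Hba-a2, chr11:32296362-32296491, plus strand: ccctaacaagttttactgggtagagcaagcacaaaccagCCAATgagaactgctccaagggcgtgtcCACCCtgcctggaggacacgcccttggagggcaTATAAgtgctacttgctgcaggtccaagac

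All 4 motifs lay within 250 bases of the start in each of the 4 globin genes, against 0.968% of 32851 promoters of the same length. CACCC and GATAA were searched because KLF1 and GATA1 act on globin genes, and the alpha windows are the same sequence. The share is thus given for scale and is not a test. Singly, they occurred in 52.0% (CACCC), 22.6% (GATAA), 33.8% (CCAAT) and 22.8% (TATAA) of those promoters. TATAA began at -29 in Hbb-bs, -28 in Hbb-bt, -27 in Hba-a1 and -30 in Hba-a2, where -1 is the base before the start. Promoter entries were matched for 7 of the 9 genes. Alas2 and Klf1 held 3 of the 4 motifs and Epor 2. Such matches are a description of the letters and say nothing of whether a factor was bound.

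In cohort 1, the globins were high in 2 of 9 HSC libraries, and those 2 belonged to different groups. Hbb-bs stood at 17.2 and 5.19 CPM in O-WT 1 and 2, at 2.93, 2.51, 3.66 and 2.55 CPM in O-NR 1 to 4, and at 41.0, 3.37 and 3.5 CPM in O-NR-RC 1 to 3. Hba-a2 stood at 16.3 and 2.03 CPM in O-WT, at 0.713, 0.680, 2.48 and 2.31 CPM in O-NR, and at 36.2, 0.986 and 1.28 CPM in O-NR-RC. For both genes O-NR-RC 1 was highest and O-WT 1 was next, while O-NR-RC 2 and 3 lay at the level of the O-NR libraries.

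Hba-a1 followed the same order, at 9.79 and 0.601 CPM in O-WT, at 1.27, 0.733, 0.930 and 1.78 CPM in O-NR, and at 17.1, 0.739 and 0.939 CPM in O-NR-RC. Hbb-bt was high only in O-NR-RC 1, with 5.0 CPM there against 0.939 to 2.03 CPM in the other 8 libraries. Alas2, the red cell form of the enzyme that opens haem synthesis, was also highest in the same 2 libraries, at 18.8 CPM in O-WT 1 and 17.6 CPM in O-NR-RC 1 against 7.0 to 9.43 CPM in the other 7. Apex2, which overlaps Alas2, was at 21.5 CPM in O-WT 1, 26.0 CPM in O-NR-RC 1 and 11.8 to 26.0 CPM over the cohort.

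**Figure D1:**
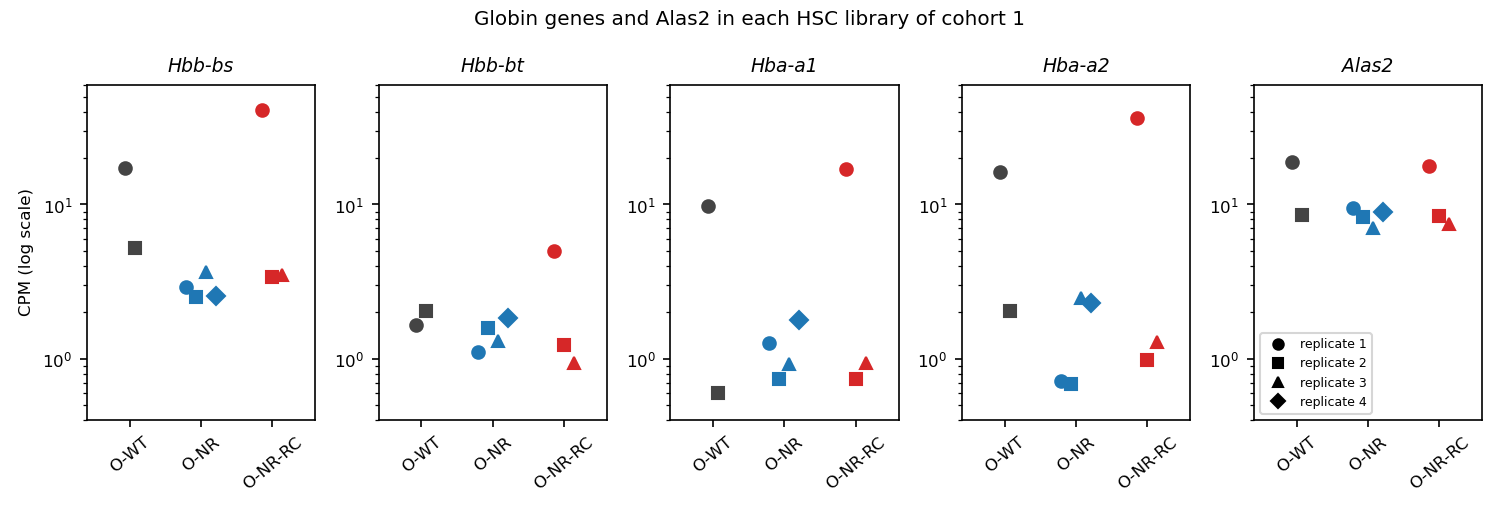
Levels of the 4 adult globin genes and Alas2 in the HSC libraries of cohort 1, 1 point per library, CPM on a log axis. O-WT 1 and O-NR-RC 1 stand above the other libraries for Hbb-bs, Hba-a1, Hba-a2 and Alas2, and O-NR-RC 2 and 3 lie among the O-NR libraries.

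The remaining 4 genes did not follow the globins. Car2, the cytosolic carbonic anhydrase of red cells and of stem cells, was at 235 and 282 CPM in O-WT, at 167, 128, 380 and 430 CPM in O-NR, and at 396, 96.0 and 123 CPM in O-NR-RC. Its 4 lowest values fell in the 4 libraries with the lowest HSC markers and the most receptor RNA. Car1, the carbonic anhydrase most abundant in red cells, was lowest in O-NR-RC 1 at 4.63 CPM and highest in O-NR 2 at 10.5 CPM. Klf1, a transcription factor of red cell maturation, ranged from 2.55 to 4.71 CPM, and Epor, the receptor for erythropoietin, from 4.52 to 9.43 CPM.

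The fitted log2 fold change of O-NR-RC against O-NR was 2.47 (SE 0.73) for Hbb-bs, 3.06 (SE 1.04) for Hba-a2 and 2.45 (SE 0.96) for Hba-a1. Hbb-bt, which missed the filter of more than 3 CPM in at least 2 libraries, had 0.79 (SE 0.48) in the fit without that filter. The others were Alas2 with 0.41 (SE 0.32), Klf1 with -0.17 (SE 0.28), Car1 with -0.23 (SE 0.27), Epor with -0.24 (SE 0.25) and Car2 with -0.43 (SE 0.61). In 0 of the 8 genes that passed did the groups stand apart without overlap, where 1.20% of the 33350 genes tested did. These contrasts chose the genes, and nothing is read from the counts.

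Without O-NR-RC 1, the log2 fold change of Hbb-bs fell from 2.54 to 0.20 in fits without the filter, that of Hba-a2 from 3.13 to -0.51 and that of Hba-a1 from 2.52 to -0.52. Hbb-bt went from 0.79 to -0.48 and Alas2 from 0.45 to -0.13. The sign was then negative for 4 of the 5 genes of haemoglobin and haem, and that of Hbb-bs stayed positive. Within the 4 libraries of high receptor RNA, O-NR-RC 2 and 3 (3.37 and 3.5 CPM) were above O-NR 1 and 2 (2.93 and 2.51 CPM) for Hbb-bs. The reads were 41 and 41 against 37 and 48. Hba-a2 lay in the same order, at 0.986 and 1.28 against 0.713 and 0.680 CPM. Hba-a1 (0.739 and 0.939 against 1.27 and 0.733 CPM) and Hbb-bt (1.23 and 0.939 against 1.11 and 1.57 CPM) overlapped. These libraries took part in the choice of the genes, so nothing is read from this order. Among the other 5 libraries, O-NR-RC had a single library, so no spread can be given there.

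**Figure D2:**
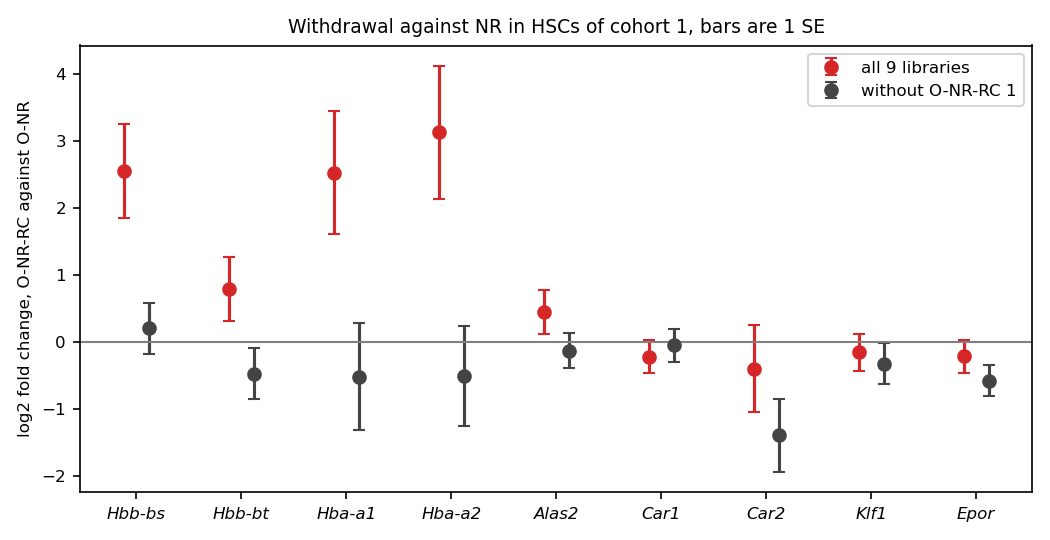
Log2 fold change of O-NR-RC against O-NR HSCs of cohort 1 for the 9 genes, in fits without the filter, with all 9 libraries and without O-NR-RC 1, with bars of 1 standard error. For Hbb-bs it moved from 2.54 to 0.20 and for Hba-a2 from 3.13 to -0.51.

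Against O-WT, O-NR-RC HSCs had log2 fold changes of 0.53 for Hbb-bs and 0.50 for Hba-a2, with overlapping groups in 8 of 8 genes that passed, where 7.95% of all genes stood apart. In the fits without the filter they were 0.58 and 0.56, but -1.77 and -3.08 without O-NR-RC 1 and 1.70 and 2.75 without O-WT 1. O-NR against O-WT gave -1.94 (SE 0.79) for Hbb-bs, -2.56 for Hba-a2 and -2.15 for Hba-a1. Without O-WT 1, again with no filter, Hbb-bs went from -1.96 to -0.84, Hba-a2 from -2.57 to -0.38 and Hba-a1 from -2.18 to 0.94, so the size of each, and for Hba-a1 the sign, turned on 1 library. Only Hbb-bs stood apart there, 1 of 8 genes against 5.71% of all genes. These comparisons share libraries with the first. Without O-WT 1 and O-NR-RC 1, Alas2 in O-NR against O-WT went from -0.70 to -0.03.

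The reads behind these levels are few. O-NR-RC 1 held 656 reads of Hbb-bs, 80 of Hbb-bt, 273 of Hba-a1 and 578 of Hba-a2, and O-WT 1 held 249, 24, 142 and 236. The 2 libraries had 75.0% of the 2983 globin reads of cohort 1 and 29.2% of its counted reads, and O-NR-RC 1 alone had 53.2% of the globin reads. In CPM without TMM scaling, all globins together were at 66.6 in O-NR-RC 1, 39.1 in O-WT 1 and 6.59 to 9.54 in the other 7.

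The 2 libraries held more alpha than beta globin reads. Alpha globin made up 53.6% of globin reads in O-NR-RC 1 (95% exact Clopper-Pearson interval 51.1% to 56.1%) and 58.1% in O-WT 1 (54.2% to 61.9%). Over the other 7 libraries of cohort 1 it made up 34.6% of 745 reads, from 25.7% to 48.3% in a library. The highest of these were O-NR 3 with 40.7% and O-NR 4 with 48.3% (39.8% to 56.8%), whose interval overlaps that of O-NR-RC 1. Over the 24 libraries of cohort 2 it made up 31.8% of 584 reads, with 49.4% in O-NR 4 of the HSCs and 92.3% of 13 reads in O-WT 3 of the GMPs. Hbb-bt made up 10.9% of beta globin reads in O-NR-RC 1 and 8.79% in O-WT 1, against 21.2% to 41.9% in the other 7. The intervals cover counting error only, since reads counted without molecular identifiers are not independent molecules.

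**Figure D3:**
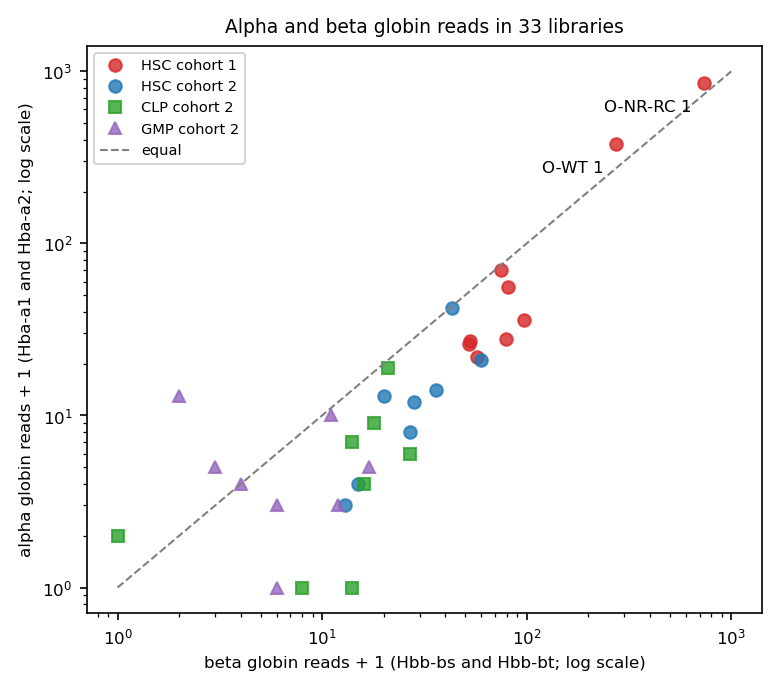
Alpha globin reads (Hba-a1 and Hba-a2) against beta globin reads (Hbb-bs and Hbb-bt) in each of the 33 libraries, both axes in reads plus 1 on a log scale. O-WT 1 (378 alpha and 273 beta reads) and O-NR-RC 1 (851 and 736) lie apart from all others and hold more alpha than beta reads.

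Slc4a1 and Hba-x did not stand out in those 2 libraries as the adult globins did, but they are single genes and do not speak for their lists. Slc4a1, the anion exchanger band 3, was highest in O-WT 1 at 24.5 CPM, with 19.8 CPM in O-NR-RC 1 and 18.1 to 22.3 CPM in the other 7. Flvcr1, of the haem list, was at 21.9 CPM in O-WT 1 and 28.6 CPM in O-NR-RC 1. Its median in the other 7 was 17.8 CPM. The embryonic alpha-like globin Hba-x ranged from 3.91 to 6.24 CPM with 3.93 CPM in O-WT 1 and 4.88 CPM in O-NR-RC 1. Of 33350 genes over the filter, 2924 (8.77%) were higher in both libraries than in all other 7, and in 8 of these the lower of both was at least 2 times the highest of the other 7. Hba-a2 led them with a ratio of 6.56, before Hba-a1 with 5.51, Hbb-bs with 3.31, the tight junction gene Cldn5 with 3.03 and the clock gene Per1 with 2.61. Alas2 had a ratio of 1.87. This ranking was made after the values had been seen and has no test.

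Over the wider red cell lists, the median difference between O-NR-RC and O-NR HSCs was close to that of all genes. The median log2 fold change was 0.01 over 20 genes of haem synthesis, -0.03 over 15 genes of iron handling, 0.02 over 24 genes of the red cell membrane, -0.03 over 23 late erythroblast genes, 0.01 over 17 transcription factors and -0.03 over 14 genes of erythropoietin receptor signalling, beside 0.02 over all genes tested. In these 6 lists 0 genes stood apart without overlap, where 1.20% of all genes did. Summed over the genes of a list, O-NR-RC 1 was the highest of the 9 libraries, with 684 CPM for haem synthesis, 1079 CPM for iron handling, 1390 CPM for membrane genes, 1548 CPM for late erythroblast genes, 4771 CPM for transcription factors and 2387 CPM for erythropoietin receptor signalling. O-NR 4 came next in each, with 588, 961, 1142, 1380, 4002 and 2129 CPM. O-WT 1 lay below O-NR 4 in each, with 547, 790, 1106, 1155, 3321 and 1595 CPM. O-NR-RC 2 and 3 were low, at 386 to 397 CPM for haem synthesis and 1451 to 1588 CPM for transcription factors. The lists hold genes abundant in HSCs, such as Kit, Lmo2 and Myb (means of 639, 578 and 503 CPM in HSCs). The sums are therefore no measure of a red cell program alone. Of the other carbonic anhydrases, the median over 13 was 0.10, with Car3 apart and higher (0.30) and Car11 apart and lower (-0.54), 2 of 13 against 1.20% of all genes. Hba-x was the only other globin tested, with 0.23.

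Neutrophil, B cell and plasma cell markers moved in part with the withdrawal group, and their levels in the 2 globin-rich libraries were mixed. Of 11 neutrophil markers 10 had positive values with a median of 0.41, and 4 stood apart, S100a9 (2.40), Ngp (1.09), S100a8 (1.02) and Ltf (0.78), where 1.20% of all genes did. Their summed level was 94.0, 121 and 142 CPM in O-NR-RC 1 to 3, 66.0 to 88.9 CPM in O-NR, and 74.7 and 94.0 CPM in O-WT, so it was lowest within O-NR-RC in the library with the most globin. Of 9 B and plasma cell markers tested, Igkc stood apart with 2.69, 1 of 9 against the same 1.20%, at 29.3, 18.0 and 119 CPM in O-NR-RC. Ighm was at 85.4, 6.24 and 130 CPM in O-NR-RC and at 5.65 and 5.64 CPM in O-WT, so it was high in O-NR-RC 1 but not in O-WT 1. Of the other markers tested none stood apart, with medians of 0.23 over 13 megakaryocyte genes, 0.10 over 8 basophil and mast cell genes, 0.03 over 9 T cell genes and close to 0 over 12 genes of the macrophages of erythroblastic islands. The summed megakaryocyte markers ranged from 730 to 1962 CPM in O-NR-RC, from 773 to 1816 CPM in O-NR and from 1424 to 1533 CPM in O-WT. Each of these marker genes was detected in each library of cohort 1. Their part in the globin levels was not tested.

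Against the background of the HSC libraries the 9 genes differed widely. Per kilobase of exon, Car2 was 20.6 to 148 times the mean of 1964 receptor genes in the 9 libraries of cohort 1, with a median of 74.4, and above the 95th percentile of those genes in 9 of 9. The median ratio was 3.33 for Car1 (above it in 9 of 9), 2.76 for Hbb-bs (6 of 9), 2.43 for Epor (5 of 9), 2.28 for Alas2 (3 of 9), 1.95 for Hba-a2 (4 of 9), 1.48 for Hbb-bt (1 of 9), 1.32 for Klf1 (0 of 9) and 0.80 for Hba-a1 (2 of 9). In O-NR-RC 1 the ratio reached 48.4 for Hbb-bs and 49.1 for Hba-a2, and in O-WT 1 18.3 for Hbb-bs. In the 8 HSC libraries of cohort 2, the median was 379 for Car2, 5.96 for Epor, 5.34 for Hbb-bs, 3.29 for Hbb-bt, 3.07 for Car1, 2.64 for Alas2, 2.36 for Hba-a2, 1.54 for Klf1 and 1.23 for Hba-a1. There Car2 and Epor were above the 95th percentile in 8 of 8, Hbb-bs in 6, Hbb-bt and Car1 in 5, Alas2 in 4, Hba-a2 in 3, Hba-a1 in 2 and Klf1 in 1.

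**Figure D4:**
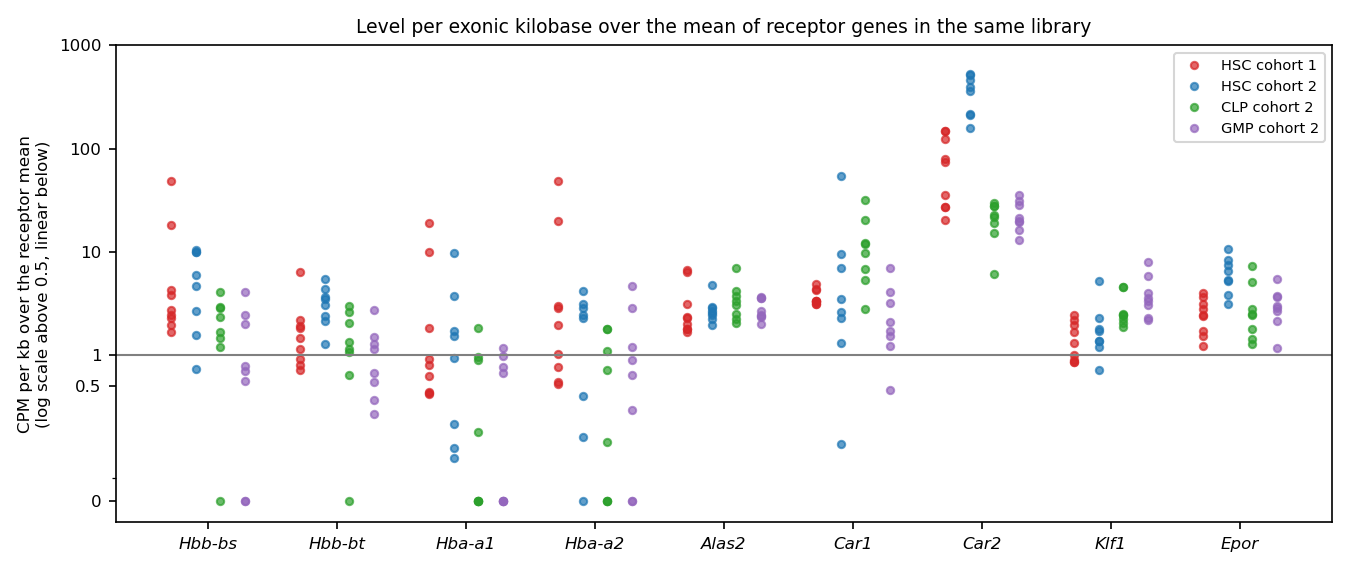
Level per kilobase of exon of each of the 9 genes, divided by the mean of 1964 olfactory and vomeronasal receptor genes in the same library, on an axis that is logarithmic above 0.5 and linear below, by cohort and cell type, 1 point per library. Car2 stands at 20.6 to 148 in the HSCs of cohort 1, where Hbb-bs reaches 48.4 in O-NR-RC 1 and Klf1 has a median of 1.32.

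In cohort 2, NR was compared with no treatment in each cell type with an edgeR quasi-likelihood test. Calls were made at an unadjusted p of 0.01, 1 of the study's cutoffs, with no fold change cutoff. Beside it stands an exact permutation test of log2 CPM in 4 against 4 libraries, two-sided, which cannot go below 0.0286. It was run 27 times, for 9 genes in 3 cell types, and 1 of these p-values was under 0.05. In HSCs, 3 of the 9 genes passed the filter of more than 3 CPM in at least 4 libraries, and 0 were called, where 0.777% of 17364 genes were. None of the 3 had p under 0.05, and DESeq2 also called none. The log2 difference was 0.05 (SE 0.14, adjusted p = 0.995) for Car2, 0.02 (SE 0.50, adjusted p = 0.996) for Alas2 and -0.42 (SE 0.32, adjusted p = 0.995) for Epor. The exact permutation p = 0.629 for Car2, p = 1 for Alas2 and p = 0.286 for Epor. Car2 was at 369, 214, 245 and 414 CPM in O-WT and at 330, 256, 403 and 358 CPM in O-NR, with overlapping groups.

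The globins were at the edge of detection in these HSCs. Hbb-bs was at 2.30, 0.683, 0.261 and 0.772 CPM in O-WT 1 to 4 and at 1.58, 3.84, 1.13 and 3.26 CPM in O-NR 1 to 4. The groups overlapped, and the fit without the filter gave 1.32 (SE 0.52, adjusted p = 1.00, edgeR; exact permutation p = 0.114), which was not called. Hba-a1 was called with 2.52 (SE 0.84, adjusted p = 1.00, exact permutation p = 0.114), but O-NR 4 held 33 of its reads against 1 to 11 in the other O-NR libraries, and without O-NR 4 it had 1.46 and was not called. Hbb-bt (0.59, SE 0.70) and Hba-a2 (0.57, SE 0.91) were not called. Without the filter 0.540% of genes were called. All 4 globins together had 14 to 48 reads per O-WT library and 33 to 83 per O-NR library.

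Car1 in HSCs also turned on 1 library. It was at 0.0920, 1.62, 5.48 and 1.61 CPM in O-WT 1 to 4 and at 2.98, 1.66, 0.519 and 28.1 CPM in O-NR 1 to 4. Without the filter its log2 difference was 1.84 (SE 0.34, adjusted p = 0.000108, edgeR; exact permutation p = 0.457), where 0.0744% of genes passed an adjusted p of 0.05. Without O-NR 4 it was -0.44. The groups overlapped, and O-NR 4 held 284 Car1 reads against 6 to 32 in the other O-NR libraries.

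In CLPs, 5 of the 9 genes passed the filter and 1 was called, where 0.412% of 19909 genes were. Car1 rose by 1.65 on the log2 scale (SE 0.41, adjusted p = 1.00, edgeR; exact permutation p = 0.114) from 4.45 ± 2.00 CPM (SD, n = 4) in O-WT to 14.4 ± 10.5 CPM (SD, n = 4) in O-NR. It was at 7.17, 4.72, 2.87 and 3.03 CPM in O-WT 1 to 4 and at 7.19, 4.63, 18.2 and 27.4 CPM in O-NR 1 to 4, so O-NR 3 and 4 were high, O-NR 2 lay within the O-WT range and O-NR 1 just above its top. Without O-NR 4 it was 1.1 and no longer called. DESeq2 called it too. Car2 was at 25.4, 25.8, 12.3 and 25.4 CPM in O-WT and at 31.7, 25.6, 26.6 and 49.3 CPM in O-NR, a log2 difference of 0.52 (SE 0.22, adjusted p = 1.00, exact permutation p = 0.0571). Alas2 had 0.67 (SE 0.44), Klf1 0.05 (SE 0.54) and Epor -0.09 (SE 0.49), each with an adjusted p = 1.00. The 4 globins had 1 to 38 reads together per CLP library and gave values of -0.15 to -2.51 without the filter, none of them called.

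In GMPs, Car2 alone passed the filter and was not called, with 0.34 (SE 0.20, adjusted p = 0.997, edgeR; exact permutation p = 0.343), where 0.986% of 13486 genes were called. DESeq2 called none either. Klf1 was at 1.77, 2.23, 2.38 and 1.98 CPM in O-WT and at 1.61, 1.68, 1.30 and 1.08 CPM in O-NR, so each O-NR library lay below each O-WT library, as in 0.747% of genes in the fit without the filter. Its log2 difference was -0.59 (SE 0.37, adjusted p = 0.999, edgeR; exact permutation p = 0.0286), which edgeR did not call.

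The NR effects of the cell types were then compared with each other in 1 model of the 24 libraries. None of the 5 genes that passed was called for a difference, against 0.403% of 22573 genes for HSC minus CLP, 0.146% for HSC minus GMP and 0.403% for CLP minus GMP. DESeq2 called none of the 5. Car1 came closest, with 0.21 for HSC minus CLP, 2.64 (SE 1.01) for HSC minus GMP and 2.43 (SE 0.99) for CLP minus GMP, the last 2 under an unadjusted 0.05 and each with an adjusted p of 0.992 or more.

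The O-NR libraries numbered 4 stood at opposite ends in different cell types. Car1 was at 28.1 CPM in HSCs and 27.4 CPM in CLPs of that number, the highest of cohort 2, and at 0.197 CPM in GMPs, the lowest GMP value. Klf1 was highest of its cell type there in HSCs (3.26 CPM) and CLPs (4.84 CPM) and lowest in GMPs (1.08 CPM). Aqp1, the water channel of red cells, was at 25.9, 12.9 and 0.788 CPM, again the highest of HSCs and of CLPs and the lowest of GMPs. Gata1 was at 9.29 CPM in HSCs and 8.61 CPM in CLPs, both the highest, and at 5.12 CPM in GMPs, the lowest. Whether these 3 libraries come from 1 mouse is not stated in the labels, and the 4 genes were singled out after their values were seen.

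Across cell types, Car2 separated HSCs from both progenitors far more than any other of the 9 genes. It was at 324 ± 76.0 CPM in HSCs, 27.8 ± 10.3 CPM in CLPs and 16.6 ± 4.44 CPM in GMPs (SD, n = 8 each). The lowest HSC library (214 CPM) lay above the highest CLP (49.3 CPM) and GMP (23.0 CPM) libraries. Its log2 difference was 3.57 (SE 0.19, adjusted p = 1.01e-23, edgeR) for HSC against CLP, 4.29 (SE 0.20, adjusted p = 9.90e-27) for HSC against GMP and 0.73 (adjusted p = 0.000461) for CLP against GMP. Per kilobase of exon its mean level was 134, 11.5 and 6.84 CPM in HSCs, CLPs and GMPs.

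Epor was at 4.82 ± 1.27, 3.12 ± 1.35 and 1.81 ± 0.656 CPM in HSCs, CLPs and GMPs (SD, n = 8 each). It was higher in HSCs than in GMPs by 1.40 (SE 0.27, adjusted p = 1.73e-05, edgeR) and in CLPs than in GMPs by 0.79 (adjusted p = 0.011), while HSCs and CLPs were not separated (0.60, adjusted p = 0.0595). The call for CLPs against GMPs was lost in 4 of the 24 fits that left out 1 library, and the difference was smallest, at 0.49, without CLP O-NR 2. It was also lost without CLP O-WT 4, GMP O-WT 2 or GMP O-NR 4. Klf1 was at 1.24 ± 0.902, 2.48 ± 1.14 and 1.75 ± 0.439 CPM and was lower in HSCs than in CLPs by 1.02 (log2 difference -1.02, SE 0.36, adjusted p = 0.0166), a call that was lost without CLP O-NR 4 (-0.72) or CLP O-WT 4. Alas2 was at 2.81 ± 1.15, 4.97 ± 3.14 and 2.09 ± 0.735 CPM. It was higher in CLPs than in GMPs by 1.20 (adjusted p = 0.000427) and lower in HSCs than in CLPs (-0.77, SE 0.29, adjusted p = 0.024), although that last call was lost in 9 of the 24 fits that left out 1 library, with the smallest difference, -0.46, without CLP O-NR 3.

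Car1 was highest in CLPs, with medians of 1.64, 5.95 and 0.706 CPM in HSCs, CLPs and GMPs. CLPs were above GMPs by 2.97 (SE 0.50, adjusted p = 1.35e-06, edgeR). HSCs were above GMPs by 2.07 (SE 0.50, adjusted p = 0.000418), but by 0.94, no longer called, without HSC O-NR 4, and HSCs against CLPs gave -0.90 (adjusted p = 0.0886). Of the 5 genes tested, 1 was higher and 2 were lower in HSCs than in CLPs, 3 were higher in HSCs than in GMPs, and 4 were higher in CLPs than in GMPs. Of all 22573 genes, 23.9% were higher and 20.2% lower in HSCs than in CLPs, 27.1% higher and 21.0% lower in HSCs than in GMPs, and 43.1% higher and 26.8% lower in CLPs than in GMPs.

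**Figure D5:**
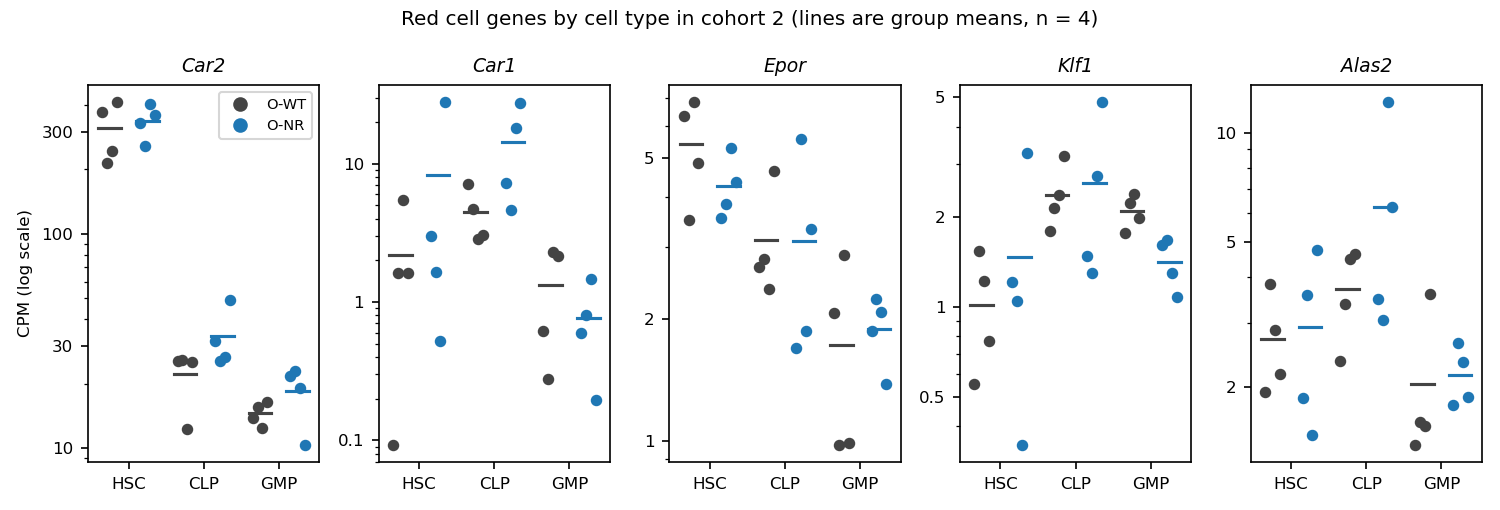
CPM on a log axis of Car2, Car1, Epor, Klf1 and Alas2 in the 24 libraries of cohort 2 by cell type and treatment, 1 point per library, with lines at group means (n = 4). Car2 stands at 214 to 414 CPM in HSCs and at 10.3 to 49.3 CPM in CLPs and GMPs, and Car1 is highest in 1 HSC and 1 CLP library of O-NR mice.

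The globins missed the filter in cohort 2 and were compared in the fit without it, which was not repeated with single libraries left out. Hbb-bs was at 1.73 ± 1.29 CPM in HSCs, 0.929 ± 0.734 CPM in CLPs and 0.295 ± 0.326 CPM in GMPs (SD, n = 8 each). It was higher in HSCs than in GMPs by 2.33 (SE 0.50, adjusted p = 3.14e-05, edgeR) and in CLPs than in GMPs by 1.52 (adjusted p = 0.0146), where 29% of genes were called. Hba-a1, at 0.728, 0.277 and 0.115 CPM, was higher in HSCs than in GMPs by 2.22 (adjusted p = 0.0342). Its SD in HSCs was 1.07 CPM and its median 0.324 CPM, with 3.26 CPM (33 reads) in HSC O-NR 4. Hbb-bt (1.58, adjusted p = 0.05) and Hba-a2 (0.77, adjusted p = 0.592) were not called for HSC against GMP, where 18.6% of genes were. The receptor genes that gauge background also differed, at 1782 to 3365 summed CPM in HSCs, 2289 to 4960 CPM in CLPs and 1088 to 2509 CPM in GMPs, and their part in the globin difference was not tested.

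Genes that act with the 9 differed widely between these cell types. Of 20 genes of haem synthesis, 4 were higher and 11 lower in HSCs than in GMPs, with a median log2 difference of -0.43 beside 0.28 over all genes, of which 27.1% were higher and 21.0% lower. Alas1, the form of the enzyme that most tissues use in place of Alas2, was at 31.3, 37.5 and 702 CPM in HSCs, CLPs and GMPs and was lower in HSCs than in GMPs (-4.49, adjusted p = 1.70e-29, edgeR). Against CLPs, 7 were higher and 2 lower in HSCs (median -0.03 beside -0.13), where 23.9% and 20.2% of all genes were. In CLPs against GMPs 0 were higher and 11 lower (median -0.53 beside 0.41), where 43.1% and 26.8% of all genes were.

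Of 14 genes of iron handling, 3 were higher and 3 lower in HSCs than in CLPs, 1 higher and 10 lower in HSCs than in GMPs, and 1 higher and 9 lower in CLPs than in GMPs. The medians were -0.08, -0.58 and -0.61, and the shares of all genes are those given for haem synthesis, 23.9% and 20.2%, 27.1% and 21.0%, and 43.1% and 26.8%. Tfrc, the transferrin receptor that feeds haem synthesis, was at 29.7, 271 and 180 CPM in HSCs, CLPs and GMPs (HSC against CLP -3.19, adjusted p = 2.24e-23, edgeR). Its relative Tfr2 ran the other way, at 89.2, 7.72 and 30.3 CPM (3.54, adjusted p = 1.96e-22).

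A list of 17 transcription factors of red cells and megakaryocytes also held Gata2, Lmo2, Myb, Ikzf1 and Spi1, which are not particular to these lineages. Of the 17, 10 were higher and 3 lower in HSCs than in CLPs, with a median of 0.64, where 23.9% and 20.2% of all genes were. Against GMPs 10 were higher and 5 lower, with a median of 0.99, beside 27.1% and 21.0% of all genes. Gata2, a stem and progenitor cell factor, was at 411, 9.26 and 101 CPM in HSCs, CLPs and GMPs (HSC against CLP 5.47, adjusted p = 2.42e-28, edgeR), while Gata1, which acts with Klf1, was at 4.44, 3.95 and 8.25 CPM. The list of erythropoietin receptor signalling likewise held genes of wider use, such as Kit and Pim1. Of its 14 genes 11 were higher and 0 lower in HSCs than in CLPs, with a median of 1.18, and 9 were higher and 1 lower than in GMPs, with a median of 0.58. Kit, the receptor for stem cell factor, was at 747, 118 and 352 CPM and the feedback inhibitor Socs3 at 36.7, 4.77 and 2.27 CPM. In CLPs against GMPs, 5 factors were higher and 10 lower, and 5 pathway genes were higher and 6 lower, beside 43.1% and 26.8% of all genes.

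Membrane and late red cell genes were mixed, and their counts stand beside 23.9% higher and 20.2% lower of all genes for HSCs against CLPs, 27.1% and 21.0% for HSCs against GMPs, and 43.1% and 26.8% for CLPs against GMPs. Of 22 membrane genes, 7 were higher and 8 lower in HSCs than in CLPs (median -0.32), 13 higher and 3 lower in HSCs than in GMPs (0.53), and 15 higher and 6 lower in CLPs than in GMPs (0.92). Epb41, a protein of the membrane skeleton, was at 274, 69.4 and 149 CPM in HSCs, CLPs and GMPs. Of 22 late erythroblast genes, the counts were 12 and 1, 10 and 4, and 6 and 8 (medians 0.45, 0.44 and -0.04). Of 12 other carbonic anhydrases they were 3 and 2, 4 and 3, and 5 and 1 (medians -0.04, 0.40 and 0.56). Of 12 megakaryocyte genes 11 were higher in HSCs than in CLPs and 9 than in GMPs, with Vwf at 465, 26.1 and 21.2 CPM.

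Under NR, the lists of cohort 2 held few called genes. In HSCs, 0 of 19 haem, 0 of 14 iron, 0 of 20 membrane and 0 of 17 transcription factor genes were called by edgeR, where 0.777% of all genes were. Hemgn, a nuclear protein of blood progenitors, fell by 0.61 on the log2 scale (adjusted p = 0.903), as 1 of 21 late erythroblast genes, and Cish, a feedback inhibitor of cytokine receptors, had -0.88 (adjusted p = 0.995), as 1 of 13 signalling genes. In CLPs, Aqp1 rose by 1.02 (adjusted p = 1.00), 1 of 20 membrane genes, where 0.412% of all genes were called. Among markers of other cells, Ighm (-4.86, adjusted p = 0.15) and Xbp1 (-1.10, adjusted p = 0.365) were lower in O-NR HSCs, 2 of 7 B and plasma cell genes, beside the 0.777%. Ighm was at 13 to 422 CPM in O-WT HSCs and at 16.1, 1.57, 2.08 and 2.07 CPM in O-NR HSCs. Hbb-bs had its highest values in O-NR 2 and O-NR 4, and a link with these genes was not tested.

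Over the 17 HSC libraries, centred within each cohort, the log2 level of Hbb-bs ran with that of Hba-a2 (Pearson r = 0.881), Hba-a1 (0.82), Hbb-bt (0.716) and Alas2 (0.587). Without O-WT 1 and O-NR-RC 1 of cohort 1 the values were 0.668, 0.555, 0.462 and 0.169. The other members had r of 0.36 for Car2, 0.205 for Klf1, 0.112 for Epor and -0.0875 for Car1. Of 30035 genes, the 10 outside the 9 with the highest r were A430027C01Rik (0.851), Nectin2 (0.841), Gm20467 (0.83), Inpp5f (0.819), Kdm8 (0.80), Alg1 (0.798), Acer2 (0.797), Gm10033 (0.79), Flvcr1 (0.784) and Ttll3 (0.783). Flvcr1 encodes an exporter of haem. The libraries share depth and background between genes, and the values are a description with no test.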

How the data were processed

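Gene counts were deposited as raw counts per gene symbol for each of 33 libraries, made with a SMARTer stranded total RNA kit. Per the study's methods and the submitters' processing notes, the authors trimmed reads with cutadapt (trim galore), aligned them with STAR to mm10 and counted them with featureCounts on Gencode M22. Strand and multimapping settings are not given in the sources used here. The counts were fitted with edgeR 4.0.16 in R 4.3.3, with TMM scaling and a quasi-likelihood test. Genes over 3 CPM in at least 4 libraries (2 in cohort 1) were tested, and genes that missed this were read from a fit of all genes. NR effects and their differences were called at an unadjusted p of 0.01, cell types at a Benjamini-Hochberg adjusted p of 0.05 over all genes tested. The study's methods list that unadjusted p or an FDR of 0.05, together with a fold change cutoff that was not applied here. Alternatives were DESeq2 1.42.0, other scalings and filters, 1 model of 24 libraries, a replicate block and leaving out each library. The script was tested on simulated counts. The 9 genes, 14 lists and tests were chosen with earlier results of these data known. Named were the 9 genes, from each list the most abundant and lowest-p genes, and the 10 genes most like Hbb-bs. Further genes are said to be chosen after their values were seen. No 2 libraries of 1 group agreed within sampling noise (smallest chi-square per degree of freedom 1.91). In cohort 1 this value was 1.91 for O-NR 1 and 2, 3.65 for O-NR 3 and 4 and 3.76 for O-NR-RC 2 and 3. Other pairs within O-NR and within O-NR-RC had 48.6 to 92.7. The standard errors of cohort 1 treat these close libraries as separate mice, which the sources used here do not state. Some genes of the lists are not reported here. Only counting error is covered by depth and intervals.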

Additional observations from a re-analysis of the deposited data

Results flagged for a closer look

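In 4 of 63 groups of 4 libraries of the 9 genes, 1 library lay far from the other 3 by the 95% critical value of Dixon's ratio for 4 values. For normally distributed values chance alone flags about 1 group in 20, a rate that need not hold for genes with few reads. Hbb-bt was at 0.808 CPM in GMP O-WT 4 (9 reads), against 0.0696 to 0.0821 CPM in the other 3 libraries of the group. Alas2 was at 3.59 CPM in the same library (40 reads), against 1.38 to 1.60 CPM. Hba-a1 was at 0.164 CPM in GMP O-WT 3, which is 2 reads, and had no read in the other 3. Car2 was at 12.3 CPM in CLP O-WT 3, against 25.4 to 25.8 CPM, and this library had the fewest counted reads of the series (4792380) and the highest summed receptor level of cohort 2 (4960 CPM).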

How the results depend on the processing

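The counts of called genes among the 9 shifted under some settings. For NR in HSCs, 0 became 2 without the filter and 1 with filterByExpr or with 1 model of 24 libraries. For NR in CLPs, 1 became 2 with a replicate block (Car2 joined, with 0.50) and 0 to 2 on leaving out 1 library (0 without O-NR 4, 2 without O-NR 2), and in GMPs 0 became 0 to 1. HSC against CLP went from 3 to 1 in O-WT libraries alone and to 1 to 4 on leaving out 1 library (1 without CLP O-NR 4). HSC against GMP went from 3 to 5 without the filter or with filterByExpr, and CLP against GMP from 4 to 2 in O-WT alone. The differences in NR effect for HSC minus GMP and for CLP minus GMP went from 0 to 1 with RLE scaling (Car1, 2.67 and 2.48). In cohort 1, genes whose groups did not overlap went from 0 to 1 with upper quartile scaling, to 2 without O-WT 1 and O-NR-RC 1, and to 0 to 2 on leaving out 1 library for O-NR-RC against O-NR. For O-NR-RC against O-WT they went from 0 to 1, 6 and 0 to 6, and for O-NR against O-WT from 1 to 1 to 4. Of the 10 genes most like Hbb-bs, 2 were shared after centring within groups and 2 by Spearman's rho. Signs near 0 turned for Alas2 in HSCs under NR (0.02, to -0.024 with upper quartile scaling and -0.0541 with the replicate block), Klf1 in CLPs (0.05, to -0.10 with the block) and Alas2 for HSC minus GMP (0.01, to -0.0650 with the block). The cause of these shifts was not tested beyond the samples or genes each setting removes. On leaving out 1 library the NR difference ranged from -0.31 to 0.35 for Alas2, -0.44 to 2.82 for Car1, -0.019 to 0.19 for Car2 and -0.28 to 0.80 for Klf1 in HSCs, from -1.03 to 0.34 for Hbb-bs, -3.08 to 0.36 for Hba-a1, -0.45 to 0.32 for Klf1 and -0.46 to 0.15 for Epor in CLPs, and from -0.24 to 1.61 for Hbb-bt, -1.68 to 0.66 for Hba-a2, -0.070 to 0.46 for Alas2 and -0.080 to 0.45 for Epor in GMPs. Deviations of same-numbered libraries had mean correlations of 0.135 in HSCs, 0.029 in CLPs and 0.048 in GMPs. Other pairs had -0.045, -0.009 and -0.017. The lowest same-numbered values were -0.36, -0.20 and -0.05, and the highest was 0.66 in HSCs. Between cell types the means were -0.026 for same-numbered and 0.0036 for other pairs. With so few pairs, whether the numbers pair the libraries is not settled, and the block is given only here. Under it Car1 for HSC against CLP was called (-1.39). Depth limits the globins of cohort 2, of which a library had at most 83 reads.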
